A study of Mus musculus with 24 samples.

Results

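The genes described here encode the enzymes with which the liver breaks down amino acids and turns their nitrogen into urea. They are 38 genes chosen by symbol: the histidine, tyrosine, tryptophan, serine, glycine, cysteine, lysine, proline and branched-chain pathways, the transaminases, the glutamine and glutamate enzymes and the urea cycle. The array named 36 of them among 23152 genes. No probe set carried the symbol of Sdsl, a serine dehydratase-like gene, or of Gls2, the liver glutaminase gene, and these 2 were not analysed here.

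Whole liver RNA came from male mice, 13 weeks old, of a strain the labels spell C56bl/6J, with chow available at all times. No genetic change or drug is named for any group. Livers were sampled every 3 h from ZT0 to ZT21, where ZT is zeitgeber time, with 3 arrays for each of the 8 times and 24 in all. It counts hours from lights on at ZT0, and the hours of light are not given in the labels. Replicates are numbered 1 to 3 within a time. Whether each is its own animal is not stated, so a p-value here reflects sample-to-sample spread that could in part be technical.

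Amino acid breakdown begins with removal of the amino group, by transaminases that pass it to glutamate or aspartate or by enzymes that release it as ammonia. The urea cycle of hepatocytes around the portal vein joins ammonia and aspartate nitrogen into urea, and glutamine synthetase in hepatocytes around the central vein takes up ammonia that escapes. The remaining carbon skeletons feed glucose production or are oxidised, and many of these enzymes are known to respond to feeding, glucagon and glucocorticoids.

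Each array gave log2 expression on a scale that ends at 19.93, and a gene's level is the mean of its probe sets. The array medians lay between 6.44 and 6.51. All 36 members lay above 6.17, the 95th percentile of 1101 olfactory receptor genes, which serve as a measure of background. The hepatocyte markers were high on every array (list mean 16.8 to 17.05), and the T and NK cell, B cell, pancreatic acinar and renal tubule lists stayed below 6.17 (list means 4.42 to 5.86). In whole liver, fewer cells of a type and less RNA per cell cannot be told apart.

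The library labelled ZT0 replicate 1 stood apart. Its mean correlation with the other arrays was 0.9678, against 0.9802 to 0.9855 for the other 23. The mean of 6 neutrophil markers was 10.29 on it and 4.0 to 4.89 on the others, and the mean of 11 Kupffer cell markers, genes of the resident liver macrophages, was 11.48 against 7.45 to 9.43. Results that rest on it are given with and without it, and the part of these cells in them was not tested.

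Of the 36 members, 8 had a 24-h rhythm, against 6.88% of all genes and 13.9% of the 10289 genes above background. In order of peak these were Gpt2, Asl, Afmid, Gldc, Hal, Amt, Amdhd1 and Agxt. The test was limma's moderated F over the cosine and sine of a 24-h period, with Benjamini-Hochberg adjustment over all genes. The peak-to-trough range below is that of the fitted curve and the acrophase its peak, each with its standard error over 24 arrays. A gene's highest and lowest times were picked by their means in the same arrays. Arrays of those times did not overlap in 28 of the 36 members, so a lack of overlap is no test of a rhythm. The same count was not made over all genes. The 36 members had a median range of 0.47 on the log2 scale, where all genes had 0.25 and genes above background 0.33. Without ZT0 replicate 1, 12 members and 6.77% of all genes were rhythmic. The 12 were the 8 and also Gpt, Nags, Prodh and Uroc1.

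Peaks fell at 3 parts of the day. Gpt2 and Asl, which handle alanine nitrogen and make arginine in the urea cycle, peaked just before ZT14. Afmid, of tryptophan breakdown, peaked near ZT17. The other 5, the histidine genes Hal and Amdhd1 and the glycine and glyoxylate genes Gldc, Amt and Agxt, peaked between ZT20 and ZT1. On the arrays of replicate 1 fitted alone, Hal, Amt, Amdhd1 and Agxt peaked later, from 1.08 h for Hal to 3.08 h for Agxt.

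**Figure D1:**
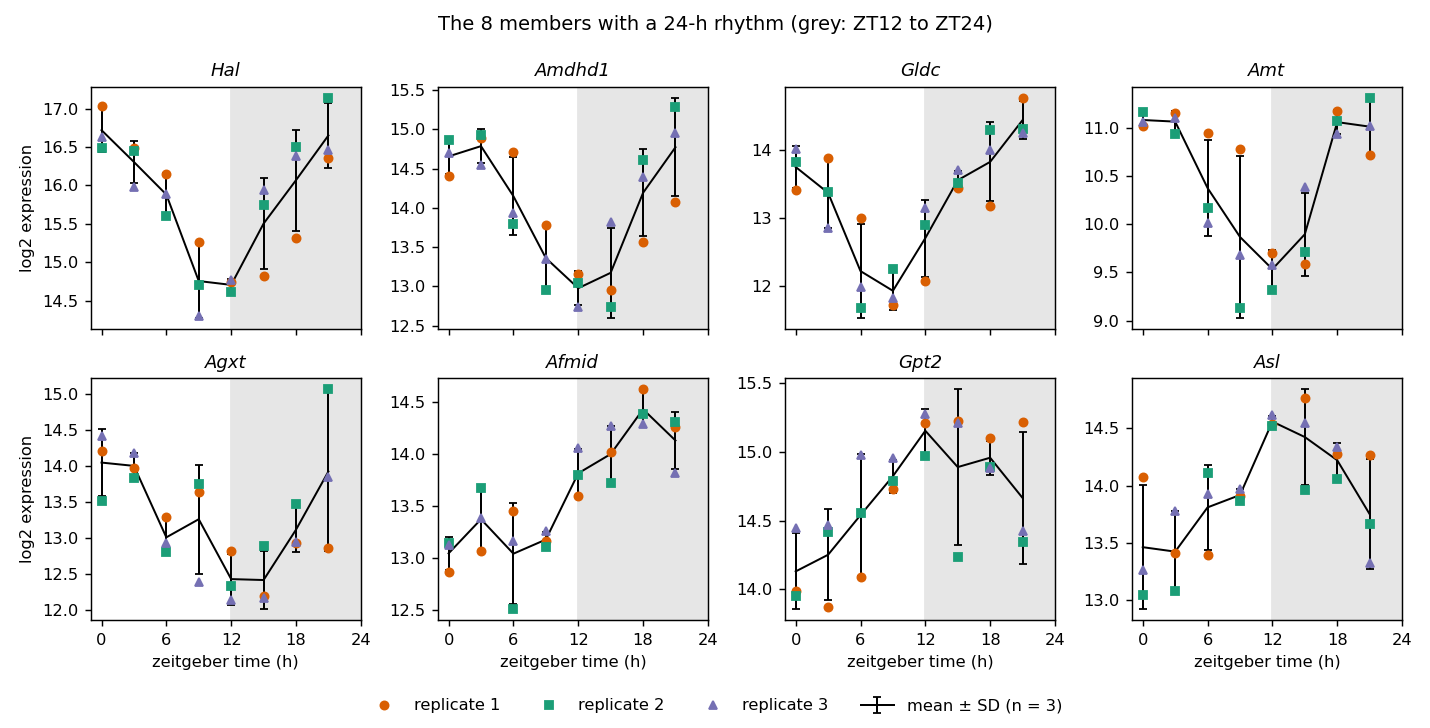
Log2 expression of the 8 rhythmic members at each zeitgeber time, with a point for each array (shape and colour give the replicate number) and a line through the means with SD (n = 3). Hal, Amdhd1 and Amt were lowest at ZT12, Gldc was lowest at ZT9 and Agxt at ZT15, while Gpt2 and Asl were highest at ZT12 and Afmid at ZT18.

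The 250 bases before the annotated start are shown for the 5 rhythmic members with the largest ranges. These are also the 5 that peaked between ZT20 and ZT1, though peak time was not used to choose them. The bases are from RefSeq on GRCm38.p6, 5′ to 3′ on the strand of the gene, and capitals mark every match to 6 short motifs searched on both strands. Gldc is on the minus strand (chr19:30175442-30175691), Hal on the plus strand (chr10:93488518-93488767), Amdhd1 on the minus strand (chr10:93540034-93540283), Agxt on the plus strand (chr1:93134990-93135239) and Amt on the plus strand (chr9:108296655-108296904). The window of Amdhd1 ends at the start used in the sequence table, and 78 of its bases lie inside the wider span given for the gene below.
Gldc: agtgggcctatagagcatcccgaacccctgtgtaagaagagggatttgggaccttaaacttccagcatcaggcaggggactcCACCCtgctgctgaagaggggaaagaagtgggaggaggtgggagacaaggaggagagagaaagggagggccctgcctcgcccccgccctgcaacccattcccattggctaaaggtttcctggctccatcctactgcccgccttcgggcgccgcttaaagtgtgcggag
Hal: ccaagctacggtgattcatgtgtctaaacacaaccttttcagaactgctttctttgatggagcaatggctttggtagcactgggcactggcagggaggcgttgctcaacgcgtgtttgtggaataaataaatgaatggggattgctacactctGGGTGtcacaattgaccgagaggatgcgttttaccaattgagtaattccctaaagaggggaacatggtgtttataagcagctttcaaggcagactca
Amdhd1: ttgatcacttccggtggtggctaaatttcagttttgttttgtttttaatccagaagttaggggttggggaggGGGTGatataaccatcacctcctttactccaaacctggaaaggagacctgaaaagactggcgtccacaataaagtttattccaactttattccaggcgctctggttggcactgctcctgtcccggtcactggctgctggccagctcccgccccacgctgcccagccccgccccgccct
Agxt: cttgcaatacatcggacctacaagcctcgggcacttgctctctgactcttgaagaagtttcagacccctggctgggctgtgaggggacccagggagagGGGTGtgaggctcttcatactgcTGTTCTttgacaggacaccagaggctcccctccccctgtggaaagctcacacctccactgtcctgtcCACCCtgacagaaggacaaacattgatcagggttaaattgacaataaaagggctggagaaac
Amt: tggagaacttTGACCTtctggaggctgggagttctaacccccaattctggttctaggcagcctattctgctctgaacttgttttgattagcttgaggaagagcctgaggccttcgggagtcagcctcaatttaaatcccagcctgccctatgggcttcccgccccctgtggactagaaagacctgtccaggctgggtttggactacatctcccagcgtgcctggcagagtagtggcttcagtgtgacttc

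The motifs were CACGTG, the E-box of clock activators, TTANGTAA, the D-box of Dbp and its relatives, AGGTCA, the core of nuclear receptor sites, TGACGTCA, the cAMP response element, AGAACA, the core of glucocorticoid receptor sites, and CACCC, the core bound by Kruppel-like factors. On one strand or the other, CACCC was at 1 place in the windows of Gldc, Hal and Amdhd1 and at 2 in that of Agxt, which also held AGAACA, and AGGTCA was in that of Amt. Of the 38 members, 29 had a window in the table, among them 7 of the 8 rhythmic genes and not Asl. CACCC was in 20 of the 29 windows and in 52.0% of all 32851 windows, AGGTCA in 10 and 14.0%, AGAACA in 2 and 16.1%, and CACGTG in 1 and 6.0%. TTANGTAA and TGACGTCA were in 0 of the 29, against 2.1% and 1.5% of all windows. A match is a description of the letters only.

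Histidine breakdown held some of the largest swings. Hal encodes histidine ammonia-lyase, which releases the amino group and commits histidine to breakdown (chromosome 10, 93488768 to 93516761). Its 3 arrays, in the order of replicates 1 to 3, read 17.04, 16.49 and 16.64 at ZT0, 16.49, 16.45 and 15.99 at ZT3, and 16.16, 15.60 and 15.89 at ZT6. They then read 15.26, 14.71 and 14.30 at ZT9, 14.74, 14.61 and 14.77 at ZT12, 14.83, 15.75 and 15.94 at ZT15, 15.32, 16.51 and 16.39 at ZT18, and 16.36, 17.14 and 16.46 at ZT21. All arrays of ZT0 and ZT21 lay above all arrays of ZT9 and ZT12. The fitted range was 2.02 ± 0.22, or 4.05-fold, with the acrophase at 23.08 ± 0.42 h (adjusted p = 9.7e-06), and all 23 probe sets of the gene had fitted peaks within 3 h of that time.

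Amdhd1 encodes imidazolonepropionase, which acts 2 steps after Hal in the same pathway. The genes are neighbours on chromosome 10 (Amdhd1 at 93523338 to 93540111), with 6576 bases and no other RefSeq gene between them, and are transcribed towards each other. Amdhd1 read 14.89, 14.93 and 14.54 at ZT3, its highest time, and 13.15, 13.04 and 12.74 at ZT12, its lowest, with no overlap. Over the day the means of Amdhd1 were 14.65 ± 0.23 at ZT0, 14.79 ± 0.21 at ZT3, 14.15 ± 0.50 at ZT6, 13.36 ± 0.41 at ZT9, 12.98 ± 0.21 at ZT12, 13.17 ± 0.57 at ZT15, 14.19 ± 0.56 at ZT18 and 14.77 ± 0.63 at ZT21 (SD, n = 3). Its range was 1.91 ± 0.23, or 3.76-fold, with the acrophase at 0.10 ± 0.46 h (adjusted p = 2.6e-05), and all 10 of its probe sets peaked within 3 h of it.

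The other histidine genes did not pass. Uroc1, which encodes urocanase, the enzyme between Hal and Amdhd1, had a range of 0.50 ± 0.14 with a fitted peak at 19.48 h (adjusted p = 0.0618), and without ZT0 replicate 1 it was 0.54 (adjusted p = 0.0262). It was highest at ZT21, with no array under 15.37, and lowest at ZT9, with no array over 15.18. Ftcd, which encodes the last enzyme of the pathway, had a range of 0.40 ± 0.16 (adjusted p = 0.281).

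Both glycine cleavage genes among the members, Gldc and Amt, were rhythmic. Gldc encodes glycine decarboxylase, the subunit of the mitochondrial glycine cleavage system that removes the carboxyl group (chromosome 19, 30098441 to 30175441). It had the largest range of the members, 2.21 ± 0.25 or 4.63-fold, with the acrophase at 20.50 ± 0.42 h (adjusted p = 1.0e-05). The arrays read 13.41, 13.82 and 14.01 at ZT0, 13.88, 13.38 and 12.85 at ZT3, 12.99, 11.67 and 11.99 at ZT6, and 11.72, 12.25 and 11.81 at ZT9. They read 12.07, 12.89 and 13.15 at ZT12, 13.44, 13.51 and 13.71 at ZT15, 13.18, 14.30 and 13.99 at ZT18, and 14.76, 14.30 and 14.25 at ZT21. The lowest mean of Gldc was at ZT9, and those of Hal, Amdhd1 and Amt were at ZT12. For Hal the means at ZT9 and ZT12 were close, at 14.76 and 14.71, and the difference in trough time was not tested. All 24 probe sets of Gldc peaked within 3 h of the gene's acrophase.

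Amt encodes aminomethyltransferase, the folate-dependent subunit of the same system (chromosome 9, 108296905 to 108302302). It read 11.02, 11.16 and 11.06 at ZT0 and 9.70, 9.32 and 9.58 at ZT12, with no overlap, and had a range of 1.63 ± 0.22, or 3.09-fold, with the acrophase at 23.21 ± 0.53 h (adjusted p = 0.000118). The time means of Amt were 11.08 ± 0.07 at ZT0, 11.06 ± 0.11 at ZT3, 10.38 ± 0.50 at ZT6, 9.87 ± 0.84 at ZT9, 9.53 ± 0.19 at ZT12, 9.90 ± 0.43 at ZT15, 11.06 ± 0.12 at ZT18 and 11.01 ± 0.30 at ZT21 (SD, n = 3). The other subunit genes are not members, and neither passed. Gcsh, for the lipoyl carrier protein, had a range of 0.02 (adjusted p = 0.996), and Dld, for the dehydrogenase that this system shares with other complexes, had 0.08 (adjusted p = 0.904).

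Agxt encodes alanine-glyoxylate aminotransferase, which makes glycine from glyoxylate in peroxisomes (chromosome 1, 93135240 to 93145421). It read 14.20, 13.52 and 14.42 at ZT0 and 12.19, 12.89 and 12.17 at ZT15, with no overlap. At ZT21 the arrays spread most, at 12.86, 15.06 and 13.84. Its time means were 14.05 ± 0.47 at ZT0, 14.00 ± 0.17 at ZT3, 13.01 ± 0.25 at ZT6, 13.26 ± 0.76 at ZT9, 12.43 ± 0.35 at ZT12, 12.41 ± 0.41 at ZT15, 13.11 ± 0.31 at ZT18 and 13.92 ± 1.1 at ZT21 (SD, n = 3). Its range was 1.63 ± 0.30, or 3.09-fold, with the acrophase at 0.65 ± 0.69 h (adjusted p = 0.00262). It also passed without ZT21 replicate 2. That array held the highest value of 9 members: Hal, Uroc1, Amdhd1, Ftcd, Got1, Agxt, Aldh4a1, Aass and Amt.

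**Figure D2:**
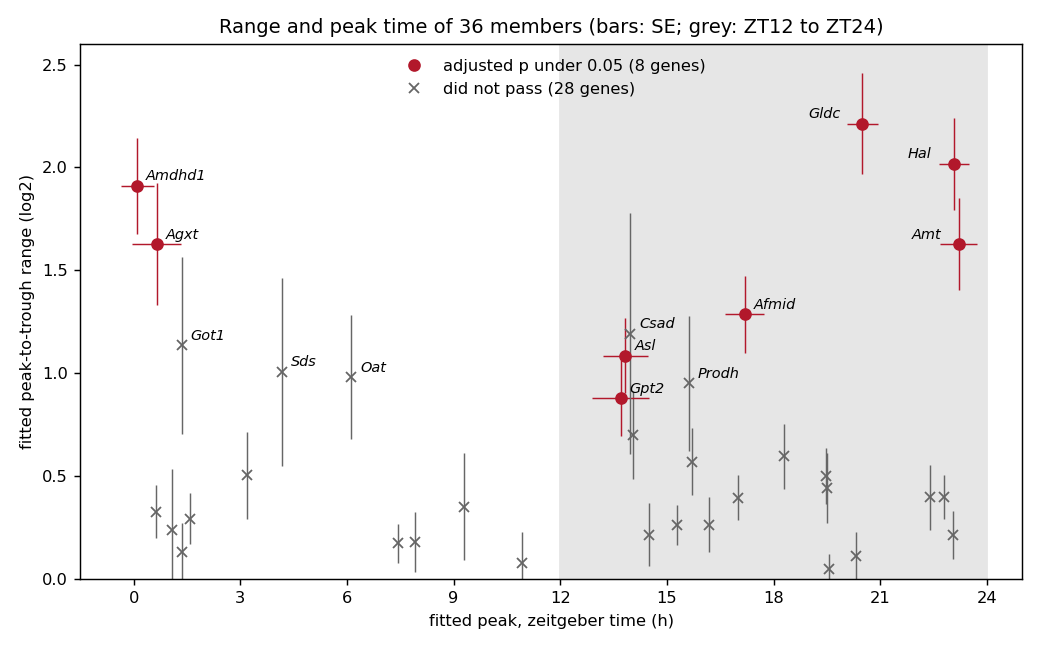
Fitted peak-to-trough range (log2, with SE) of the 36 members against the zeitgeber time of the fitted peak, with circles for the 8 that passed and crosses for the 28 that did not. The 5 rhythmic genes between ZT20 and ZT1 had ranges of 1.63 to 2.21, and Csad, Got1 and Sds had ranges of 1.01 to 1.19 that did not pass.

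Among the transaminases, Gpt2 passed with a smaller swing. It encodes the mitochondrial alanine aminotransferase (chromosome 8, 85492576 to 85528902). Its arrays read 15.21, 14.97 and 15.28 at ZT12, its highest time, and 13.99, 13.96 and 14.45 at ZT0, its lowest, with no overlap. By time the means of Gpt2 were 14.13 ± 0.28 at ZT0, 14.25 ± 0.33 at ZT3, 14.54 ± 0.44 at ZT6, 14.82 ± 0.12 at ZT9, 15.15 ± 0.16 at ZT12, 14.89 ± 0.56 at ZT15, 14.96 ± 0.12 at ZT18 and 14.66 ± 0.48 at ZT21 (SD, n = 3). The range was 0.88 ± 0.18, or 1.84-fold, with the acrophase at 13.70 ± 0.80 h (adjusted p = 0.00999). This call was lost when the 3 ZT0 arrays were left out (adjusted p = 0.067), with the brightest probe set (0.0574), and when replicate 1 was left out at all times (0.0952). The brightest probe set of Gpt2 had a mean of 19.24, near the upper end of the scale.

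Its cytosolic counterpart Gpt had a fitted range of 0.70 ± 0.21 at 14.04 h and did not pass (adjusted p = 0.108). ZT0 replicate 1 read 13.20 for Gpt, against 11.48 and 12.35 for the other ZT0 arrays, and without it the range was 0.84 (adjusted p = 0.0247). The aspartate aminotransferases did not pass. Got1, the cytosolic enzyme, varied widely between arrays of one time, with 14.91, 12.35 and 13.88 at ZT0 and 13.78, 15.14 and 12.88 at ZT21 (range 1.14 ± 0.43, adjusted p = 0.25). Without ZT0 replicate 1 its range was 0.95 (adjusted p = 0.409). Got2, the mitochondrial enzyme, had a range of 0.26 ± 0.13 (adjusted p = 0.474), with 2 of its 14 probe sets at the upper end of the scale on at least 1 array. The differences between the enzymes of each pair were not tested.

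Of the 6 urea cycle genes, Asl was rhythmic and 5 did not pass. Asl encodes argininosuccinate lyase, which releases arginine and fumarate (chromosome 5, 130011258 to 130024381). Its arrays read 14.08, 13.04 and 13.26 at ZT0, 13.41, 13.07 and 13.78 at ZT3, 13.39, 14.11 and 13.93 at ZT6, and 13.91, 13.87 and 13.97 at ZT9. They read 14.54, 14.52 and 14.62 at ZT12, 14.76, 13.96 and 14.55 at ZT15, 14.28, 14.05 and 14.33 at ZT18, and 14.27, 13.66 and 13.32 at ZT21. The ZT12 arrays lay close together and above all arrays of ZT0 to ZT9. The range was 1.09 ± 0.18, or 2.12-fold, with the acrophase at 13.83 ± 0.64 h (adjusted p = 0.00116), and all 15 probe sets peaked within 3 h of it.

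Nags, which makes the N-acetylglutamate that activates the first step of the cycle, was highest at ZT21 (10.44 ± 0.19, n = 3) and lowest at ZT6 (9.61 ± 0.39). Its range of 0.59 ± 0.16 at 18.28 h missed the threshold (adjusted p = 0.0548), and it passed under several alternatives, among them the brightest probe set (range 0.81, adjusted p = 0.0324), the median of the probe sets (1.00 and 0.0207) or without ZT0 replicate 1 (0.61 and 0.0424). Otc, for ornithine transcarbamylase, had a range of 0.33 ± 0.13 at 0.63 h (adjusted p = 0.284). Of its 14 probe sets, 2 reached the upper end of the scale on at least 1 array. Arg1, for the arginase that releases urea, had 0.26 ± 0.10 at 15.28 h (adjusted p = 0.233), with 3 of 10 probe sets reaching that end.

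For Cps1 and Ass1 the array allows little. Cps1, for the carbamoyl phosphate synthetase of the first step, read 19.18 on average. Of its 33 probe sets, 25 reached the upper end of the scale on at least 1 array and 19 on all 24. On the other 8 probe sets its range was 0.18 (adjusted p = 0.699), against 0.05 over all of them. Ass1, for argininosuccinate synthetase, had 3 probe sets with means from 4.20 to 10.95. Its level of 7.55 is therefore not one to set beside the others, and its range of 0.24 ± 0.29 did not pass (adjusted p = 0.897).

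**Figure D3:**
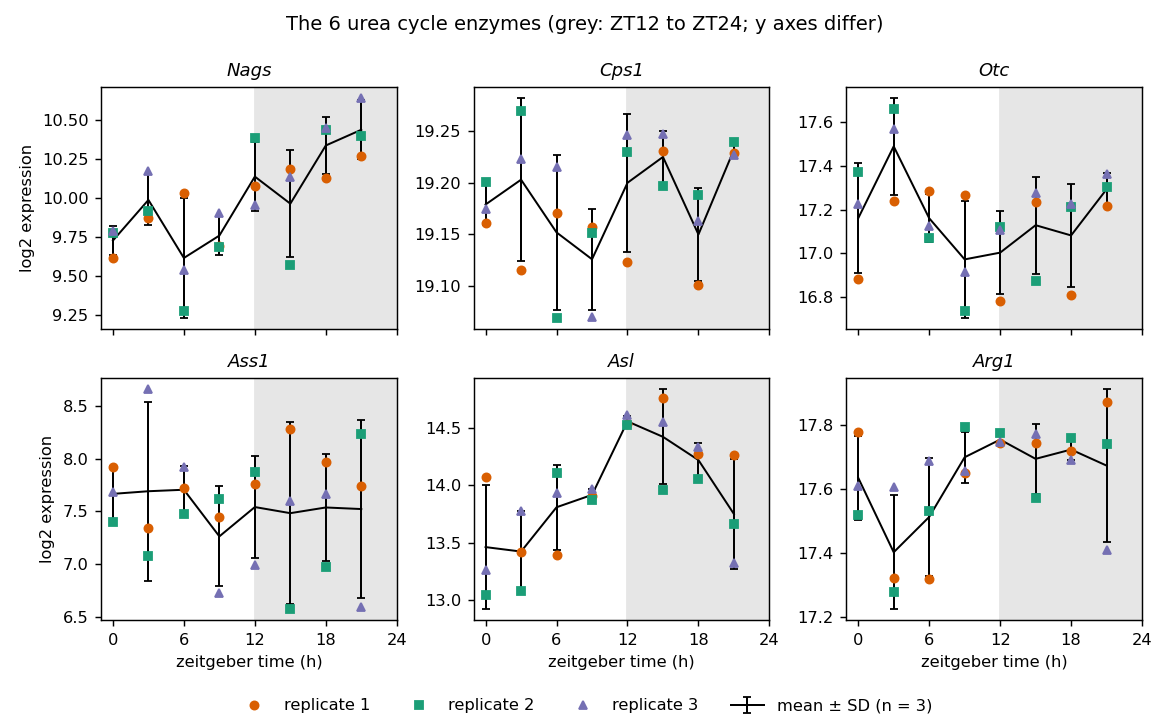
Log2 expression of the 6 urea cycle genes at each zeitgeber time, with a point for each array and a line through the means with SD (n = 3), each gene on its own axis. Asl rose to its highest mean at ZT12 (14.56 ± 0.05), while the time means of Cps1 stayed between 19.13 and 19.23, near the upper end of the scale.

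Tryptophan breakdown held 1 rhythmic member of 3. Afmid encodes arylformamidase, which turns formylkynurenine into kynurenine (chromosome 11, 117825503 to 117839908). It read 14.62, 14.38 and 14.29 at ZT18 and 13.46, 12.50 and 13.16 at ZT6, with no overlap, and had a range of 1.29 ± 0.19, or 2.44-fold, with the acrophase at 17.19 ± 0.55 h (adjusted p = 0.000231). Afmid had means of 13.04 ± 0.16 at ZT0, 13.37 ± 0.30 at ZT3, 13.04 ± 0.49 at ZT6, 13.18 ± 0.08 at ZT9, 13.82 ± 0.23 at ZT12, 14.00 ± 0.28 at ZT15, 14.43 ± 0.17 at ZT18 and 14.13 ± 0.27 at ZT21 (SD, n = 3). All 13 of its probe sets peaked within 3 h of it. Tdo2, for the dioxygenase of the step before, had a range of 0.17 ± 0.10 (adjusted p = 0.539), with 7 of 16 probe sets at the upper end. Kmo, for the hydroxylase of the step after, had 0.50 ± 0.21 at 3.19 h (adjusted p = 0.321).

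Of the 4 tyrosine genes, 0 passed in the main limma fit. At an unadjusted p under 0.05 there was 1, Tat. In the test without moderation Tat passed (adjusted p = 0.0391). It also passed limma under several alternatives, among them quantile normalization (adjusted p = 0.0487) and leaving out genes dimmer than the median (0.0301). Tat encodes tyrosine aminotransferase, the first step, and 10 of its 12 probe sets reached the upper end of the scale on at least 1 array, 4 of them on all arrays. Its range over all probe sets was 0.39 ± 0.11 at 17.01 h (adjusted p = 0.0639). On the other 2 probe sets it was 0.77 at 16.50 h (adjusted p = 0.0121). Its arrays read 19.81, 19.60 and 19.65 at ZT15, its highest time, and 18.95, 19.12 and 19.47 at ZT3, its lowest. Hpd, Hgd and Fah, for the next enzymes of the pathway, had ranges of 0.07 to 0.21, with adjusted p-values of 0.535 to 0.959, and 7 of 18, 0 of 15 and 1 of 17 probe sets at the upper end.

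Neither cysteine enzyme passed in the main fit. Cdo1, for the cysteine dioxygenase that opens the route to taurine, had 4 of its 6 probe sets at the upper end and a range of 0.40 ± 0.11 at 22.78 h (adjusted p = 0.0564). On the other 2 probe sets the range was 0.91 at 22.65 h (adjusted p = 0.0225). With all probe sets Cdo1 passed limma under several alternatives, among them quantile normalization (adjusted p = 0.044) and leaving out genes dimmer than the median (0.027). Csad, for the decarboxylase that follows Cdo1 on that route, read 10.25 on ZT0 replicate 1 and 14.40 to 16.18 on the other 23 arrays. On that array it was 5.12 below the mean of the other ZT0 arrays, at 15.13 and 15.61. Csad did not pass with that array (range 1.19 ± 0.58, adjusted p = 0.452) or without it (0.63, adjusted p = 0.343), so its fitted range of 1.19 rests on 1 array.

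ZT0 replicate 1 also held the highest value of 5 members: Hpd, Sds, Prodh, Bckdhb and Cdo1. Sds, for the serine dehydratase that makes pyruvate from serine, read 13.93 on it and 10.80 and 12.08 on the other ZT0 arrays. Over all arrays Sds ran from 10.55 to 13.93 and had a range of 1.01 ± 0.46 that did not pass (adjusted p = 0.392), nor did that of 0.90 without this array (0.401). Prodh, for the proline dehydrogenase that starts proline breakdown, read 12.55 on it against 11.33 and 9.97 on the other ZT0 arrays. Its range was 0.95 ± 0.33 (adjusted p = 0.179), and 1.12 without that array (adjusted p = 0.0493). Besides Csad, Dbt was lowest on ZT0 replicate 1.

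**Figure D4:**
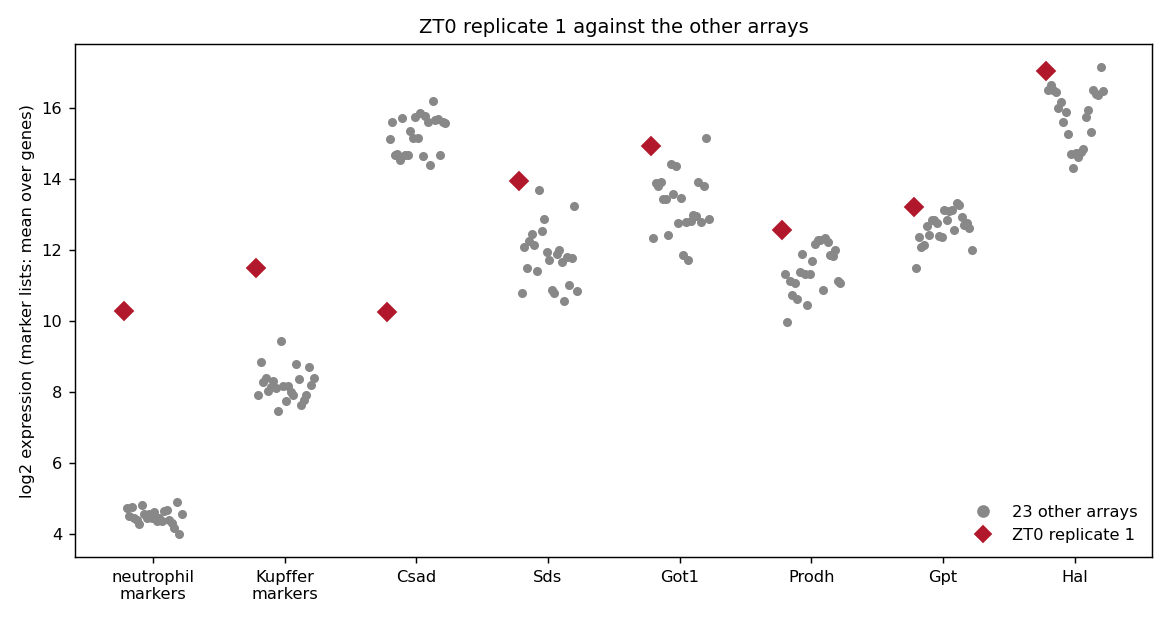
Log2 expression on ZT0 replicate 1 (diamonds) and on the 23 other arrays (circles) for the means of the neutrophil and Kupffer cell markers and for 6 members. The diamond for Csad lies at 10.25, below all other arrays, and those for Sds and Prodh lie above all other arrays, while Hal on this array (17.04) lies within the range of the others.

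The remaining members did not pass. Oat, for the ornithine aminotransferase that links ornithine to proline and glutamate, had a range of 0.98 ± 0.30 at 6.12 h (adjusted p = 0.108), and passed without ZT18 replicate 2 (range 1.18, adjusted p = 0.0339). Aldh4a1, of the proline pathway, had 0.44 ± 0.17 (adjusted p = 0.269). Glul, for glutamine synthetase, had 0.35 ± 0.26 (adjusted p = 0.721) and was lowest on ZT0 replicate 3, at 13.59 against 15.51 and 15.30 on the other ZT0 arrays. Glud1, for glutamate dehydrogenase, had 0.29 ± 0.12 (adjusted p = 0.339), with 3 of 16 probe sets at the upper end of the scale on at least 1 array.

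Of the branched-chain ketoacid dehydrogenase subunits, Bckdha and Bckdhb had ranges of 0.18 and 0.21 (adjusted p = 0.762 and 0.698). Dbt, for the transacylase core, had 0.57 ± 0.16 at 15.71 h (adjusted p = 0.0765) and passed without ZT3 replicate 2, ZT15 replicate 2 or ZT18 replicate 1 (0.0428 to 0.0496). Aass, for the first enzyme of lysine breakdown, had 0.13 ± 0.14 (adjusted p = 0.874).

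A test over the 8 time-point means, which assumes no shape, called 5 of the 36 members with limma. It called 1.98% of all genes and 432 of the 10289 genes above background. The 5 members were Gldc (adjusted p = 0.00233), Hal (0.00296), Afmid (0.00296), Amdhd1 (0.00684) and Amt (0.00946). Asl (0.0886), Agxt (0.07) and Gpt2 (0.209) did not pass there. Of the 12-h terms added to the 24-h curve, limma called 0 of 36 members and 0% of all genes, and 0 of 36 had an unadjusted p under 0.05.

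Between the start and the 12th hour of the cycle, 3 members fell, against 0.397% of all genes and 67 of the 10289 genes above background. ZT12 minus ZT0 was -2.01 ± 0.32 for Hal (limma, adjusted p = 0.00467), -1.68 ± 0.34 for Amdhd1 (0.0173) and -1.55 ± 0.31 for Amt (0.0158). In each of these genes all 3 arrays of ZT12 were below all 3 of ZT0. Without ZT0 replicate 1 they passed as well, at -1.85 for Hal, -1.80 for Amdhd1 and -1.58 for Amt. Of the 36 members, 0 rose, against 0.834% of all genes and 185 of the 10289 above background. In that direction 7 members had an unadjusted p under 0.05, led by Asl (1.1 higher, adjusted p = 0.0517) and Gpt2 (1.02 higher, adjusted p = 0.0657). Agxt did not pass in the other direction, at -1.62 (adjusted p = 0.0566). Without any 1 of the ZT12 arrays only Hal passed, and without ZT0 replicate 1 Asl passed as well. With the brightest probe set Amt passed neither this test (adjusted p = 0.128) nor that over time means (0.239). Of all genes called, 67.7% were higher at ZT12, but 41% of 776 without ZT0 replicate 2.

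Kupffer cell and neutrophil markers were also lower at ZT12 in this comparison, though limma called none of them. All 11 Kupffer cell markers had differences of -1.85 to -0.98, with 10 at an unadjusted p under 0.05, and all 6 neutrophil markers -3.34 to -0.65, with 5. The Kupffer list mean differed by -1.45 with all arrays and by -0.42 without ZT0 replicate 1, and the neutrophil list mean by -2.02 and -0.13. The stellate list was mixed, with 5 of 10 lower. Under that p, the collagen genes Col1a1 (-2.05) and Col3a1 (-2.15) were lower, and Lrat (1.42) and Ecm1 (0.68) were higher. Of 10 endothelial markers 3 were lower, and the list mean differed by 0.29 with all arrays and by 0.23 without ZT0 replicate 1. Of 9 periportal markers, which include the members Hal, Sds, Arg1 and Ass1, 5 were lower and limma called 1, Hal. The periportal list mean differed by -0.44 with and -0.43 without ZT0 replicate 1. Of 10 pericentral markers, which include the members Glul and Oat, 2 were lower. The pericentral list mean differed by 0.4 with and 0.62 without that array. The part of these cells in the differences of the members was not tested.

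The peak hours pool replicates that differ. On the 8 arrays of replicate 1, fitted alone, the peaks of the 8 rhythmic members lay a median of 3.11 h later than on those of replicate 2, with 7 of 8 later. Against replicate 3 the median was 3.09 h, with 8 of 8 later, and replicates 2 and 3 differed by 0.24 h. Hal peaked at 1.08 h on replicate 1, 22.17 h on replicate 2 and 21.99 h on replicate 3, and Asl at 16.06 h, 12.71 h and 12.79 h. Afmid was the gene that peaked later on replicate 2, at 18.23 h, than on replicate 1, at 17.10 h. Within each replicate number Gpt2 and Asl peaked first and Afmid next, and Gldc peaked before Hal, Amt, Amdhd1 and Agxt. On the 16 arrays of replicates 2 and 3, 7 of the 8 members stayed rhythmic, the exception being Gpt2.

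**Figure D5:**
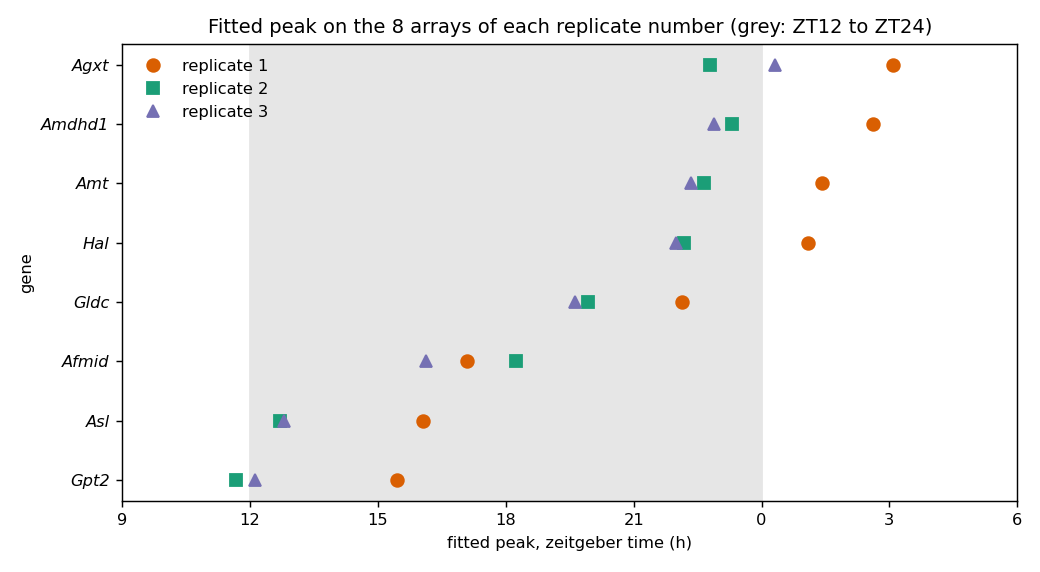
Zeitgeber time of the fitted peak for the 8 rhythmic members, fitted on the 8 arrays of each replicate number, with no test. The points of replicate 1 lie later than those of replicates 2 and 3 for all genes but Afmid, and the order from Gpt2 and Asl through Afmid and Gldc to the other 4 is the same in each set.

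Other genes of amino acid handling and genes listed as regulators were taken from a list of 85, of which 80 were measured. Of these, 24 were rhythmic, or 30.0%, against 6.88% of all genes and 13.9% of genes above background, where 72 of the 80 lay. The list was chosen with earlier results of these data known, so this share is a description and no test. Among the 24 were 7 of 15 regulators, including the clock gene Per1 and the glucocorticoid target Fkbp5. In the tryptophan and lysine group 3 of 8 passed: Kynu, for kynureninase, peaked at 21.96 h with a range of 2.80-fold, Haao, for the dioxygenase that acts next, at 20.09 h with 1.59-fold, and Kyat1, for a kynurenine aminotransferase, at 19.41 h with 1.81-fold. Qdpr, which regenerates the cofactor of phenylalanine hydroxylase, passed as 1 of 3 in its group (2.1-fold, 18.93 h). Of 17 other branched-chain genes, limma called 0, and 2 lay under an unadjusted p of 0.05.

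Of 16 other genes of glycine, serine, proline and cysteine, 5 passed. Cth, for the enzyme that makes cysteine from cystathionine, peaked at 22.62 h (1.75-fold), and Agxt2 at 22.91 h (1.63-fold). With the brightest probe set the range of Cth was 0.14 against 0.80 on the log2 scale and did not pass (adjusted p = 0.746). Shmt1 (17.71 h), Prodh2 (16.75 h) and Mpst (17.16 h) had ranges of 1.47-fold to 1.77-fold. Of 10 other urea and nitrogen genes 4 passed: the mitochondrial ornithine carrier Slc25a15 (22.64 h, 1.67-fold), the aspartate-glutamate carrier Slc25a13 (10.26 h, 1.64-fold), the glutamate carrier Slc25a22 (3.61 h, 2.56-fold) and the asparaginase gene Aspg (2.18 h, 1.86-fold). On the 16 arrays of replicates 2 and 3 Slc25a13 did not pass (adjusted p = 0.116).

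Of 11 amino acid carriers of the cell surface, 4 passed, with fitted peaks between ZT5 and ZT10. Slc38a2, a carrier of small neutral amino acids, read 16.04, 15.68 and 15.62 at ZT6 and 13.99, 13.96 and 13.77 at ZT18, and had a fitted range of 3.99-fold with a peak at 7.01 h. The arginine and ornithine carrier Slc7a2 peaked at 5.22 h with a range of 4.31-fold, the glutamine carrier Slc38a3 at 5.82 h with 1.95-fold and the glutamate carrier Slc1a2 at 9.54 h with 3.22-fold. With its brightest probe set Slc38a3 had a range of 0.04 on the log2 scale and did not pass (adjusted p = 0.972).

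Among the regulators, Klf15, a factor known to drive amino acid breakdown genes, peaked at 9.31 h with a fitted range of 2.40-fold. Its mean was 11.01 ± 0.33 at ZT0 and 12.49 ± 0.15 at ZT6 (SD, n = 3). The Klf15 call was lost with the median of its probe sets (adjusted p = 0.0773) and with the brightest one (0.114). Cebpb peaked at 9.85 h (2.43-fold), Hnf4a at 9.36 h (1.61-fold), Foxo1 at 11.11 h (1.5-fold) and Ppara at 7.11 h (1.70-fold). Fkbp5, a glucocorticoid target, peaked at 11.39 h with a range of 5.61-fold, and the clock gene Per1 at 10.18 h with 9.66-fold. Nr3c1, for the glucocorticoid receptor, and Gcgr, for the glucagon receptor, missed the threshold (adjusted p = 0.957 and 0.366). Among the 24 genes, 15 passed when fitted without replicate 1 at any time, and Haao, Shmt1, Prodh2, Mpst, Slc25a13, Slc25a22, Hnf4a, Foxo1 and Ppara did not. With the brightest probe set 8 passed, and Qdpr, Haao, Kyat1, Agxt2, Prodh2, Cth, Mpst, Aspg, Slc25a15, Slc25a13, Slc25a22, Slc38a3, Klf15, Hnf4a, Foxo1 and Ppara did not. With 1 array left out at a time, Foxo1 lost its call for 17 of the 24 arrays, Slc25a22 for 17, Ppara for 15, Shmt1 for 14, Prodh2 for 11, Agxt2 for 6 and Hnf4a for 5.

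Several members mark zones of the liver lobule. Hal, Sds, Arg1 and Ass1 are markers of hepatocytes near the portal vein, and Glul and Oat of those near the central vein. Of the periportal list, 2 of 9 measured genes were rhythmic, Hal and Pck1, and the list mean per time lay between 14.51 and 15.05. Of the pericentral list, 1 of 10 was rhythmic, Slc1a2, and the list mean lay between 12.1 and 12.7. None of the 11 Kupffer cell, 10 endothelial and 6 neutrophil markers was rhythmic with limma, with 0, 3 and 0 at an unadjusted p under 0.05. Of the stellate and biliary lists, 2 of 10 and 1 of 6 were rhythmic, and the part of these cells in the members' rhythms was not tested.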

How the data were processed

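Total liver RNA (300 ng) was made into biotin-labelled single-stranded DNA and hybridised to 24 Affymetrix arrays, per the labels' protocols. The deposited values are log2 expression for 269479 probe sets, normalized by the authors by a method not given in the sources used here; per the submitters' processing notes, Affymetrix Power Tools 2.10.0, limma and the mm10 build were used, without stated roles. Probe sets with 1 gene symbol (233753; 5106 had several and 30620 none) were averaged per gene after 2189 symbols were updated through RefSeq, which gave 23152 genes, with no filter on dim genes. The number of arrays limits the precision.

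Each gene was fitted over all 24 arrays with limma 3.58.1 (R 4.3.3), with Benjamini-Hochberg adjustment over all genes and a threshold of 0.05: 24-h cosine and sine terms, 12-h terms, the 8 time means, and ZT12 minus ZT0. The fit was tested on simulated data. The members, gene lists and tests were chosen with earlier results of these data known. Rhythmic members were named with values at every time, other members by role, and other pathway genes where rhythmic. Alternatives changed the scaling, the filter, the gene value, the variance prior, the array weights, a replicate block and the arrays used. The deviations of same-numbered arrays from their time means had a mean r of -0.031 over 84 pairs, so the main fit has no replicate block; this mean would not show a shift in peak time shared by a replicate number.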

Additional observations from a re-analysis of the deposited data

How the results depend on the processing

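Hal, Amdhd1, Afmid, Agxt, Asl, Gldc and Amt stayed rhythmic under every alternative run, and the rhythm, time and ZT12 minus ZT0 values of the named genes kept their direction where called. The share of ZT12 minus ZT0 calls that were higher at ZT12 was 67.7%, and 41% without ZT0 replicate 2. Leaving out genes dimmer than the median left 11576 genes, of which 2036 (17.6%) were rhythmic, among them 13 members. For ZT12 minus ZT0 that setting gave 7 members and 584 of the 11576 genes past the threshold. The brightest probe set gave 760 rhythmic genes, 122 with a time effect and 52 for ZT12 minus ZT0, and the median of the probe sets 907, 222 and 116. The test without moderation gave 204 genes with a time effect and 160 for ZT12 minus ZT0, and array weights gave 8 members and 694 genes with a time effect. The 16 arrays of replicates 2 and 3 gave 765 rhythmic genes, 1 with a 12-h component and 70 for ZT12 minus ZT0. With the replicate number as a block, 8 members and 1435 genes were rhythmic, 5 members had a time effect and 3 differed between ZT12 and ZT0. The cause of these changes was not tested.

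Leaving out 1 array at a time gave 8 to 12 rhythmic members and 1316 to 1730 rhythmic genes, 5 to 7 members and 295 to 579 genes with a time effect, 0 with a 12-h component, and 1 to 5 members and 39 to 776 genes for ZT12 minus ZT0, against 285 with all arrays. The 295 and 299 came without ZT9 replicate 3 and ZT18 replicate 3. For ZT12 minus ZT0 there were 115 and 776 genes without ZT0 replicate 1 and 2, and 39, 95 and 88 without ZT12 replicate 1, 2 and 3. In that comparison 5 members passed without ZT15 replicate 2 or ZT21 replicate 1. Of the members, 15 had probe sets at the upper end of the scale on at least 1 array. Signal there limits what can be seen for Cps1, Tat, Cdo1, Tdo2 and Hpd. For Arg1, Otc and Glud1 a smaller share of the probe sets reached it.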
